A study of Mus musculus with 81 samples.

Results

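Retnla, Retnlg, Chil1, Chil3, Stfa1, Csta3, Saa3 and Slpi are 8 mouse genes for small proteins that myeloid cells secrete or hold in their cytosol: resistin-like proteins, chitinase-like proteins, stefins, an acute-phase protein and a protease inhibitor. They were chosen by their log2 levels in the 27 groups and their differences between Irf8 knockout and wild type, with earlier results of these arrays known, and were read from probes whose only gene symbol was that of the gene. Each of the 8 had 1 such probe. They are 8 of 22180 genes with a probe of 1 symbol, and all 8 were among the 17099 genes tested, each of which lay over a floor of 3.041 log2 (the median of the whole value table) in at least 2 arrays.

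The arrays measured messenger RNA of sorted mouse macrophages and their progenitors, 80 samples in 27 groups. Irf8, the deleted gene of the knockout mice, encodes a DNA-binding regulator related to the other interferon regulatory factors. Wild type was measured in 14 groups with 41 samples and the knockout in 13 with 39. In the yolk sac these were erythro-myeloid progenitors at embryonic day 8, in wild type alone, and the populations A1 and A2 at day 9.5. Microglia of the brain, Kupffer cells and CD11bhigh macrophages of the liver, and F4/80high and CD11bhigh macrophages of the kidney were sorted at embryonic day 14 (E14) and from adults 6 weeks old. Langerhans cells of the skin came from adults only. Every group had 3 samples except E14 wild-type kidney F4/80high cells with 2. GFP+ cells are named in the titles of wild-type Langerhans samples but not in the knockout titles, so reporter and genotype cannot be told apart there. The labels do not give the Irf8 allele, the strain or which samples came from separate animals. Errors and p-values therefore rest on a spread between samples that may be technical. For each gene the standard error (SE) pools this spread over all 27 groups, so it is not the spread of the 2 groups compared.

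Resistin-like proteins are small cysteine-rich secreted proteins. Retnla, also called Fizz1, and Chil3, also called Ym1, are classical genes of mouse macrophages under interleukin-4 and interleukin-13, and Retnlg is known from bone marrow and neutrophils. Chitinase-like proteins keep the fold of a chitinase without its enzyme activity, and Chil1 is the mouse counterpart of human YKL-40. Stefins block cysteine cathepsins inside cells, Slpi blocks neutrophil serine proteases such as elastase and cathepsin G, and Saa3 is the serum amyloid A that macrophages and other cells outside hepatocytes make in inflammation. Irf8 is known to favour monocytes and macrophages over granulocytes as progenitors mature.

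Retnla with Retnlg and Stfa1 with Csta3 are neighbours on chromosome 16. Their promoters are shown because each pair of neighbours shares a locus and a gene family. Each is the stretch from 250 bases before to 50 bases after the RefSeq gene start in the build GRCm38.p6, 300 bases on the plus strand. Retnla is at chr16:48842359-48842658 and Retnlg at chr16:48872358-48872657, and the genes are 28.1 kb apart with 0 genes between them. Csta3 is at chr16:36210153-36210452 and Stfa1 at chr16:36276898-36277197, 59.4 kb apart with Csta2, another stefin, and the gene Gm24569 between. Capitals mark every match to TTGCNNAA, the letters of a C/EBP site, on either strand, and to TATAAA.
Retnla: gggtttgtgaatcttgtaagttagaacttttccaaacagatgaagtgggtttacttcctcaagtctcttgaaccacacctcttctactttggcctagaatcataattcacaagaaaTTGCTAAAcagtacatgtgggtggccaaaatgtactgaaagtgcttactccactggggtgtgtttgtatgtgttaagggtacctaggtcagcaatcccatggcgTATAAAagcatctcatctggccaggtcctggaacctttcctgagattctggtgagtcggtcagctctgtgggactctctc
Retnlg: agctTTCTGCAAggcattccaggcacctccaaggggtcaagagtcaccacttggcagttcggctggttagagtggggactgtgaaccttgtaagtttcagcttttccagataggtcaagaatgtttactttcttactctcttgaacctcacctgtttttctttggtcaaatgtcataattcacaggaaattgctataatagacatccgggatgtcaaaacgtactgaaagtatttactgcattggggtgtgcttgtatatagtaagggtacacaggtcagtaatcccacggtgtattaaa
Stfa1: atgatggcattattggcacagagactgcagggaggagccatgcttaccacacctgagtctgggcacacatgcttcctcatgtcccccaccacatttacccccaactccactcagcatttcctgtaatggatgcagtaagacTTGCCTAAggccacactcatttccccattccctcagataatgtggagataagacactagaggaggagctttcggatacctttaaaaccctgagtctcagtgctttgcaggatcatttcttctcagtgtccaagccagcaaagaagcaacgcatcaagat
Csta3: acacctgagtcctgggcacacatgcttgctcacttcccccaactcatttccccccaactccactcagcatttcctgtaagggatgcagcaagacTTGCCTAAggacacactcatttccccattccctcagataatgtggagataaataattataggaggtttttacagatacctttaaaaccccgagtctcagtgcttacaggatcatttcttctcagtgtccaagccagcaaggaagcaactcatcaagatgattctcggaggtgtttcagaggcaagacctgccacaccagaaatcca

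When aligned, the Stfa1 and Csta3 promoters were identical in 65.3% of aligned columns, and their capitals spell the same letters. Among the other pairs of the 8 promoters the share ran from 46.0% to 53.6%. Retnla with Retnlg had 48.0%, or 180 identical bases in 375 columns, and gaps count as columns. The windows of these neighbours are offset: gtgaatcttgtaagtt near the start of the Retnla window recurs further along in Retnlg as gtgaaccttgtaagtt. Their share therefore understates the likeness of the stretches that match, and it is not ranked against the other pairs. TTGCNNAA occurred in 6 of the 8 promoters (all but Chil1 and Chil3) and in 10.8% of 32851 RefSeq promoters of the same length. A STAT6 site, TTC and GAA set 4 bases apart, occurred in Retnla and Retnlg and in 6.95% of all promoters. TATAAA occurred in Retnla and Chil3 (13.6% of all), TTCNNNGAA of STAT3 in Chil3 (8.3%), an interferon-stimulated response element, GAAA and GAAA set 2 bases apart, in Saa3 (3.44%) and GAGGAA of PU.1 in Retnla and Stfa1 (28.3%). The composite element of ETS factors with Irf4 or Irf8, GGAA and GAAA set 2 bases apart, occurred in 0 of the 8 and in 2.72% of all. All motifs were searched on both strands, no matches in these 8 promoters overlapped, and a match describes letters in this window only. The Saa3 window, 46715627-46715926 on the minus strand of chromosome 7, lies inside the gene's listed span of 46711998-46719615. Its matches are therefore not at the start of that span. TATAAA began 30 bases before the listed gene start in Retnla and 3 bases before it in Chil3. The windows may thus be placed differently from gene to gene, and a motif's presence or absence is not compared between genes.

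Array medians ran from 2.94 to 3.20 log2. Microglia carried their marker list at mean levels of 7.39 to 10.08 log2 against at most 6.16 elsewhere, Kupffer cells at 5.28 to 10.07 against at most 4.73, and Langerhans cells at 9.49 to 9.80 against at most 5.93. Irf8 signal was over 5 log2 in every knockout sample, and its difference was called in 4 of 13 populations: it fell by 3.02 ± 0.25 (SE) in E14 liver CD11bhigh cells, from 8.67 to 8.88 in wild type to 5.19 to 6.43, and by 1.09 ± 0.25 in Langerhans cells, 0.76 ± 0.25 in adult kidney CD11bhigh cells and 0.69 ± 0.25 in adult liver CD11bhigh cells. No source used here says whether the Irf8 probe lies within the deletion, so its level does not check the labels. Markers of other cells were also present: 24 neutrophil markers averaged 8.70 to 8.93 log2 in E14 wild-type liver CD11bhigh cells and 2.80 to 3.05 in E8 progenitors, and 7 kidney tubule markers averaged 5.49 to 9.55 in the adult kidney groups. In sorted bulk samples, fewer cells of a type and less RNA per cell cannot be told apart.

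In E14 microglia 7 of the 8 genes were higher in every knockout sample than in every wild-type sample and Retnla lay below the floor in all 6 samples. A difference is called here when its adjusted p in limma (a linear model fitted to all genes) was under 0.05 over the 17099 genes. Of 104 differences, 8 genes in 13 populations, 32 were called: 27 higher and 5 lower in the knockout. Because the genes were listed with these differences known, the calls are given as a description beside the share of all genes called, with no p-value, and nothing is read from them about the list.

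In E14 microglia 7 of 8 were called, all higher, beside 14.3% of all genes, and the count was 4 to 7 when any 1 sample was left out, 4 without wild-type replicate 1. E14 kidney CD11bhigh cells had 5 (14% of all genes), adult liver CD11bhigh cells 4 (16.8%), adult kidney CD11bhigh cells 3 (13.6%), Langerhans cells 3 (27%) and A1 cells 3 (3.36%). E14 Kupffer cells had 2 (23.0%) and E14 liver CD11bhigh cells 2 (14%). E14 kidney F4/80high cells had 1 (1.97%), A2 cells 1 (10%) and adult microglia 1 (14.6%). With 1 sample left out at a time the count was 3 to 5 in E14 kidney CD11bhigh cells (3 without knockout replicate 1), 1 to 3 in Langerhans cells (1 without wild-type replicate 2, knockout replicate 2 or knockout replicate 3), 2 to 3 in A1 cells, 1 to 2 in E14 kidney F4/80high cells (2 without knockout replicate 3) and 0 to 1 in adult microglia (0 without wild-type replicate 1 or 3, or knockout replicate 2 or 3). In adult Kupffer cells (11.9%) and adult kidney F4/80high cells (3.56%) limma called 0 of 8, and at an unadjusted p under 0.05 there were 1 and 0. The median difference over the 8 genes was 2.70 log2 in E14 microglia and 2.50 in E14 kidney CD11bhigh cells, against 0.03 and -0.03 over all genes tested. All 3 calls in A1 cells were lower in the knockout, as were Saa3 in adult liver CD11bhigh cells and Slpi in Langerhans cells.

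**Figure D1:**
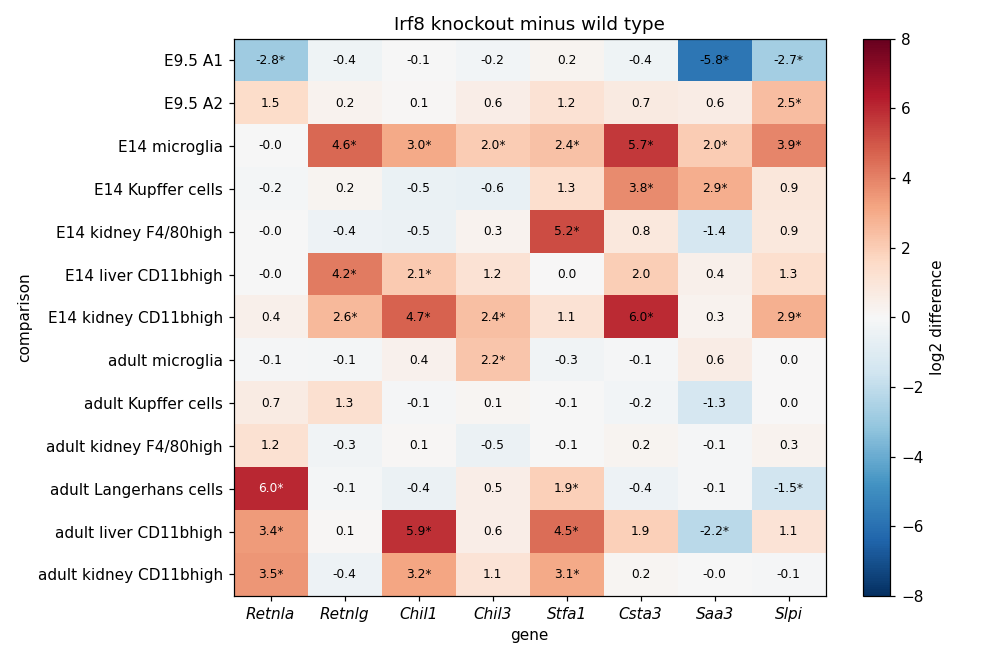
Log2 difference, Irf8 knockout minus wild type, for each of the 8 genes (columns) in the 13 populations measured in both genotypes (rows). Red is higher in the knockout, blue is lower, and an asterisk marks a difference called over all genes tested. E14 microglia have asterisks in 7 of 8 columns, and the 3 asterisks of E9.5 A1 are all on negative values.

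Neutrophil markers moved in the same comparisons, and their part in the differences was not tested. In E14 microglia 18 of the 24 markers were higher and 1 lower in the knockout, and their mean was 3.58, 5.11 and 5.96 log2 in the wild-type samples against 7.20, 7.67 and 7.53. In adult liver CD11bhigh cells 19 of 24 were higher and the means were 5.39, 5.61 and 6.43 against 9.71, 9.34 and 9.39. In adult kidney CD11bhigh cells 15 were higher and 1 lower, with means of 3.97, 4.58 and 4.89 against 7.89, 7.10 and 7.12. Monocyte markers were called in both directions: the knockout had 10 of 11 higher and 1 lower in E14 microglia, 0 and 7 in adult liver CD11bhigh cells, 0 and 4 in adult kidney CD11bhigh cells, and 1 and 6 in each E14 CD11bhigh gate.

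The E14 CD11bhigh gates showed the same list at higher wild-type levels. In the kidney 18 of 24 markers were higher in the knockout, with means of 6.67, 6.25 and 4.63 against 9.45, 9.32 and 7.50, so that replicate 3 was the lowest sample of each genotype. In the liver 8 of 24 were higher, with means of 8.70, 8.87 and 8.93 against 9.77, 9.82 and 9.77. In E14 kidney F4/80high cells 1 marker was called, in E14 Kupffer cells 6, in Langerhans cells 3 and in A1 cells 1, which was lower.

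The strongest Retnla signal lay in adult CD11bhigh cells and in knockout Langerhans cells, and most embryonic groups did not exceed the floor. Retnla is a small secreted protein of alternatively activated macrophages. Mean levels (± SD) were highest in knockout adult liver CD11bhigh cells at 9.38 ± 0.31 log2, followed by knockout Langerhans cells at 7.92 ± 1.16 and knockout adult kidney CD11bhigh cells at 7.62 ± 1.08. Wild-type adult liver CD11bhigh cells had 5.96 ± 2.40, wild-type A1 cells 5.23 ± 0.93 and wild-type adult kidney CD11bhigh cells 4.10 ± 2.76. The other 21 group means lay between 1.35 and 2.82, and in 17 groups no sample passed the floor. Samples of each group overlapped those of the next in this order in all 26 neighbouring pairs.

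In Langerhans cells the 3 knockout samples had Retnla at 9.21, 6.96 and 7.58 log2 and the wild-type samples at 2.35, 1.61 and 1.70, all below the floor. The difference of 6.03 ± 0.79 (SE) was the largest of the gene. Beside it, the neutrophil list means of the genotypes overlapped (3.53 to 3.90 in wild type, 3.77 to 4.07 in the knockout), and 6 of 6 keratinocyte markers tested were higher in the knockout, with list means of 7.63 to 7.87 against 9.61 to 9.85, and 3 of 11 monocyte markers were higher, 3.56 to 3.80 against 4.48 to 4.84. Whether keratinocyte or monocyte RNA had a part in it was not tested.

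Adult CD11bhigh cells of both organs had higher Retnla in the knockout. Liver samples had 9.68, 9.06 and 9.40 in the knockout and 7.16, 3.20 and 7.54 in wild type, a difference of 3.42 ± 0.79 with no overlap. Without wild-type replicate 2, the low one, it was 2.04 and no longer called. Kidney samples had 8.78, 7.46 and 6.63 against 2.27, 2.75 and 7.27, so the groups overlapped, and the difference was 3.53 ± 0.79. Leaving out 1 sample at a time moved it from 2.61 to 5.11, the latter without wild-type replicate 3, and it was not called with the compared groups alone in the fit. In A1 cells Retnla went the other way, with 3.06, 1.39 and 2.77 in the knockout and 5.77, 4.16 and 5.77 in wild type, a difference of -2.83 ± 0.79 that was no longer called without any of 4 of the 6 samples (-2.32 to -3.01).

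Retnlg, the neighbour of Retnla, was near 9 log2 in adult liver CD11bhigh cells of both genotypes, and at E14 it was higher in the knockout in microglia and both CD11bhigh populations. Means were 9.32 ± 0.31 in knockout and 5.13 ± 0.62 in wild-type E14 liver CD11bhigh cells, 9.30 ± 0.21 and 9.19 ± 0.07 in adult liver CD11bhigh cells, and 9.13 ± 1.26 and 6.54 ± 0.89 in E14 kidney CD11bhigh cells. Adult kidney CD11bhigh cells had 7.15 ± 0.27 in the knockout and 7.56 ± 2.99 in wild type, where replicate 1 had 4.11 beside 9.11 and 9.45. A1 cells had 4.48 ± 0.84 in the knockout and 4.84 ± 0.82 in wild type, and E14 microglia 8.29 ± 0.27 and 3.68 ± 1.86. The other 15 groups had means of 1.35 to 3.00.

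E14 microglia had Retnlg at 8.56, 8.02 and 8.29 in the knockout and 2.12, 5.75 and 3.19 in wild type, a difference of 4.61 ± 0.69. E14 liver CD11bhigh cells had 9.04, 9.66 and 9.25 against 4.50, 5.13 and 5.75, a difference of 4.19 ± 0.69. Neither pair of groups overlapped. In E14 kidney CD11bhigh cells the values were 9.89, 9.84 and 7.67 against 6.55, 7.42 and 5.64 and the difference 2.59 ± 0.69, which fell to 2.14 to 2.24 and was no longer called without wild-type replicate 3, knockout replicate 1 or knockout replicate 2. In adult Kupffer cells the values were 2.18, 3.62 and 3.19 against 1.80, 1.56 and 1.76, a difference of 1.29 ± 0.69 that was not called.

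Chil1 was low in almost all wild-type groups and high in CD11bhigh cells of the knockout. It binds chitin without cutting it, and its human counterpart is stored in neutrophil granules. Its means were 9.48 ± 0.28 in knockout and 7.37 ± 0.24 in wild-type E14 liver CD11bhigh cells, 8.35 ± 0.37 in knockout adult liver CD11bhigh cells, 7.49 ± 1.96 in knockout E14 kidney CD11bhigh cells, 5.75 ± 0.04 in knockout E14 microglia and 5.47 ± 1.06 in knockout adult kidney CD11bhigh cells. Adult microglia followed with 4.0 ± 0.54 in the knockout and 3.64 ± 0.28 in wild type, groups that overlapped. The remaining 19 groups had means of 1.98 to 2.90, below the floor. Among wild-type groups, E14 liver CD11bhigh cells and adult microglia had means over it. Wild-type E14 liver CD11bhigh samples did not overlap knockout E14 microglia, the next group in the order.

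The largest Chil1 difference was in adult liver CD11bhigh cells, at 8.77, 8.11 and 8.17 in the knockout and 1.95, 1.94 and 3.54 in wild type, or 5.87 ± 0.46. E14 kidney CD11bhigh cells had 8.70, 8.53 and 5.23 against 3.13, 2.51 and 2.68, a difference of 4.71 ± 0.46. Adult kidney CD11bhigh cells had 6.51, 5.53 and 4.39 against 2.39, 1.85 and 2.71, a difference of 3.16 ± 0.46. Genotypes did not overlap in any of these 3 populations, and the calls held with each sample left out.

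E14 microglia completed the set, with Chil1 at 5.74, 5.79 and 5.72 against 2.27, 3.17 and 2.73, a difference of 3.02 ± 0.46. E14 liver CD11bhigh cells, already high in wild type, differed by 2.11 ± 0.46. All 5 populations with a Chil1 call had higher neutrophil marker means in the knockout than in wild type, without overlap. The marker means were also higher without overlap in A1 cells and in the E14 kidney gate that is not CD11bhigh. Chil1 was not called in either, with differences of -0.06 ± 0.46 in A1 cells and -0.48 ± 0.51 in that kidney gate. Whether neutrophil RNA had a part in the Chil1 calls was not tested.

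Chil3 had its highest levels in adult CD11bhigh cells, in both genotypes. Its product Ym1 is a secreted lectin of macrophages and neutrophils. Liver cells had 11.12 ± 0.25 log2 in the knockout and 10.57 ± 0.45 in wild type, and kidney cells 10.67 ± 0.18 and 9.56 ± 0.87. E14 liver CD11bhigh cells had 9.02 ± 0.27 and 7.84 ± 0.53, adult microglia 7.83 ± 1.01 and 5.62 ± 3.12, A1 cells 5.62 ± 0.73 and 5.84 ± 0.76. Knockout E14 kidney CD11bhigh cells had 5.39 ± 0.53 and knockout E14 microglia 4.88 ± 0.50, and the other 15 groups 2.28 to 3.90.

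Chil3 was called in 3 populations, all higher in the knockout. E14 kidney CD11bhigh cells had 5.87, 5.47 and 4.82 in the knockout and 3.35, 2.50 and 3.08 in wild type, a difference of 2.41 ± 0.69 that fell to 2.17 or 2.18 and was no longer called without knockout replicate 1 or wild-type replicate 2. E14 microglia had 4.96, 4.34 and 5.33 against 2.80, 3.37 and 2.32, a difference of 2.04 ± 0.69 that was no longer called without any of 4 of the 6 samples. Both pairs of groups were apart. E14 liver CD11bhigh cells differed by 1.18 ± 0.69, from 9.32, 8.85 and 8.89 to 7.28, 7.91 and 8.33, and were not called.

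In adult microglia the Chil3 difference moved widely with single samples. Knockout samples had 6.67, 8.44 and 8.38 and wild-type samples 3.77, 9.22 and 3.86, so replicate 2 of the wild type was the highest of all 6. The difference was 2.21 ± 0.69, and 4.01 without that sample. Without wild-type replicate 1 or 3 it was 1.29 or 1.34, without knockout replicate 2 or 3 it was 1.91 or 1.94, and none of these 4 was called. The neutrophil marker mean of wild-type replicate 2 was 5.98, against 3.42 and 3.97 in replicates 1 and 3 and 4.74 to 5.93 in the knockout. The part of neutrophil RNA in this value was not tested.

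**Figure D2:**
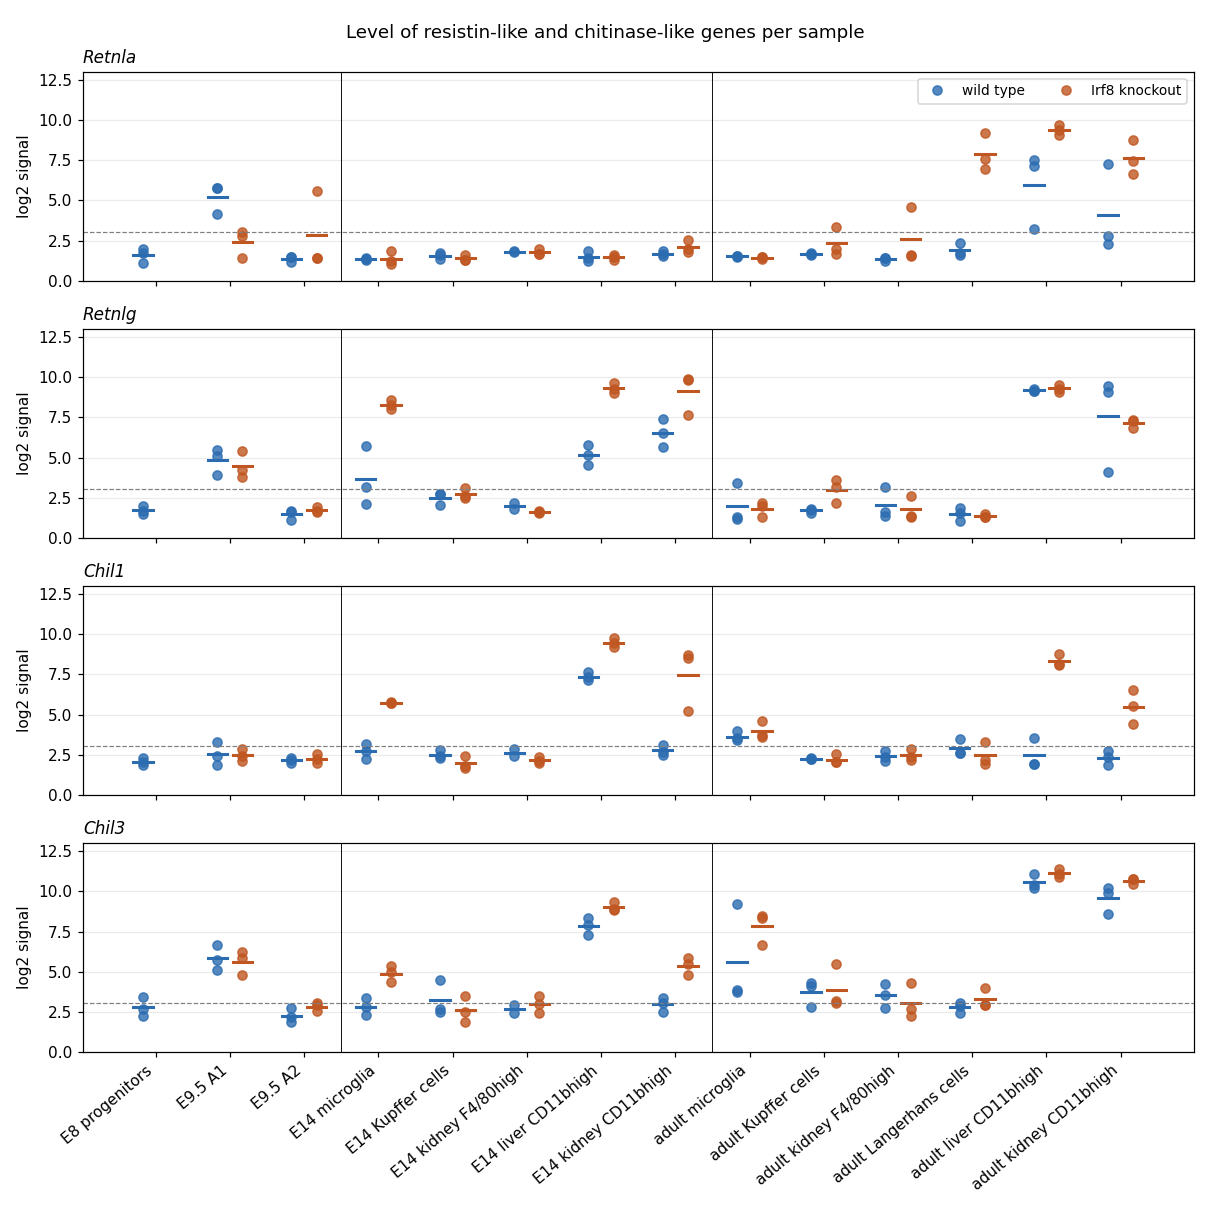
Log2 signal (vertical axis) of Retnla, Retnlg, Chil1 and Chil3 in every sample, by population (horizontal axis), wild type in blue and Irf8 knockout in orange. Points are samples, bars are group means, and the dashed line is the floor of 3.041. Retnla lies over the floor mainly in adult cells, whereas Retnlg, Chil1 and Chil3 also do so in E14 cells.

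Stfa1 was close to 12 log2 in E14 liver CD11bhigh cells. Its mean was below 3 in 4 of the 6 adult wild-type groups, and among embryonic groups it was 2.95 in wild-type E14 kidney F4/80high cells and 3.25 in E8 progenitors. It encodes a stefin, an inhibitor of cysteine cathepsins. E14 liver CD11bhigh cells had 11.97 ± 0.04 in the knockout and 11.94 ± 0.06 in wild type, E14 kidney CD11bhigh cells 11.87 ± 0.16 and 10.73 ± 1.19, E14 microglia 11.59 ± 0.16 and 9.23 ± 2.59, and E14 Kupffer cells 11.42 ± 0.21 and 10.08 ± 0.23. A2 cells had 11.24 ± 0.14 and 10.07 ± 0.20 and A1 cells 9.31 ± 0.69 and 9.08 ± 0.62. Knockout adult liver CD11bhigh cells had 9.34 ± 0.39, knockout E14 kidney F4/80high cells 8.17 ± 1.48, and the remaining 13 groups 2.29 to 6.13.

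E14 kidney F4/80high cells showed the largest Stfa1 difference, with 8.12, 9.68 and 6.72 in the 3 knockout samples against 3.22 and 2.68 in the 2 of wild type, or 5.22 ± 0.72. It was the single one of the 8 genes called there. Neutrophil markers averaged 3.43 and 3.42 in the wild-type samples against 3.61, 4.30 and 3.62, without overlap. Of the 24 markers, 9 were at or below the floor in all 3 knockout samples, and the others exceeded it in some or all of these. The part of neutrophil RNA in the Stfa1 difference was not tested.

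In adults Stfa1 was higher in the knockout in 3 populations. Liver CD11bhigh cells had 9.09, 9.80 and 9.14 in the knockout and 4.44, 3.67 and 6.49 in wild type, a difference of 4.48 ± 0.65. Kidney CD11bhigh cells had 5.17, 6.38 and 6.32 against 2.10, 3.00 and 3.58, a difference of 3.06 ± 0.65. Langerhans cells differed by 1.90 ± 0.65, no longer called without wild-type replicate 2 or knockout replicates 2 or 3 (1.69 to 1.79). The genotypes were apart in all 3.

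In E14 microglia Stfa1 was 11.45, 11.77 and 11.57 in the knockout and 6.27, 10.32 and 11.10 in wild type, a difference of 2.36 ± 0.65 that rested on wild-type replicate 1: without it the difference was 0.88 and not called. That sample also had the lowest neutrophil marker mean of its group.

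Csta3, the stefin beside Stfa1, had every sample over the floor in 5 groups, all of them at E14. Its means were 11.57 ± 0.11 in knockout and 9.59 ± 0.40 in wild-type E14 liver CD11bhigh cells, 10.70 ± 1.25 in knockout E14 kidney CD11bhigh cells, 10.16 ± 0.06 in knockout E14 microglia and 6.22 ± 0.15 in knockout E14 Kupffer cells. Wild-type E14 kidney CD11bhigh cells (4.72 ± 3.00), E14 microglia (4.49 ± 2.37) and A2 cells (3.81 ± 2.91) were spread widely between samples, as were knockout A2 cells (4.54 ± 1.69). In adults only knockout liver CD11bhigh cells had a mean over the floor, 3.35 ± 1.05. Stefin genes of this cluster resemble each other, and whether their probes share signal was not tested.

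Per sample, Csta3 in E14 kidney CD11bhigh cells was 11.46, 11.39 and 9.25 in the knockout and 6.98, 5.87 and 1.32 in wild type, a difference of 5.98 ± 0.84. E14 microglia had 10.21, 10.17 and 10.09 against 1.76, 6.10 and 5.60, a difference of 5.67 ± 0.84. E14 Kupffer cells had 6.11, 6.17 and 6.38 against 2.03, 1.76 and 3.59, a difference of 3.76 ± 0.84. All 3 populations were apart by genotype, and the calls held with each sample left out. In E14 Kupffer cells the population's own markers moved too: 8 of 8 Kupffer cell markers (median difference -2.84) and 8 of 8 macrophage markers (-1.86) were lower in the knockout, 4 of 5 progenitor markers higher, and 4 of 11 monocyte markers higher and 2 lower. Their part in the Csta3 and Saa3 differences there was not tested. E14 liver CD11bhigh cells were apart too, at 11.46, 11.67 and 11.60 against 9.14, 9.76 and 9.87, but the difference of 1.99 ± 0.84 was not called.

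Among the knockout differences of the 8 genes, the lowest value was that of Saa3 in A1 cells. It is an acute-phase protein that macrophages make on inflammatory signals. Means were 8.89 ± 1.11 in knockout and 8.58 ± 0.15 in wild-type E14 kidney CD11bhigh cells, 8.72 ± 0.34 in wild-type and 2.95 ± 0.75 in knockout A1 cells, 6.75 ± 0.56 in wild-type and 4.56 ± 1.42 in knockout adult liver CD11bhigh cells, and 6.06 ± 0.55 in knockout and 3.14 ± 0.47 in wild-type E14 Kupffer cells. Kidney F4/80high cells at E14 had 5.45 ± 0.02 in wild type (2 samples) and 4.08 ± 1.75 in the knockout, and liver CD11bhigh cells at E14 5.23 ± 0.46 in the knockout and 4.84 ± 0.30 in wild type. Knockout E14 microglia had 4.49 ± 1.16, and the other 14 groups 2.10 to 3.95.

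The A1 samples had Saa3 at 2.63, 2.41 and 3.81 in the knockout and 8.98, 8.83 and 8.34 in wild type, a difference of -5.77 ± 0.61. Beside it, 7 of 11 monocyte markers were lower in knockout A1 cells, with means of 4.18 to 4.99 against 5.53 to 6.74, and 7 of 8 macrophage markers were lower, 4.30 to 4.65 against 6.12 to 6.27. The neutrophil list differed little, at 5.03 to 5.17 against 4.90 to 4.96. A part of these cell types in the fall was not tested.

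Adult liver CD11bhigh cells had lower Saa3 in the knockout, with 6.11, 4.24 and 3.34 against 6.53, 6.32 and 7.38, a difference of -2.18 ± 0.61 that was no longer called without wild-type replicate 3 (-1.87) or knockout replicate 3 (-1.57). E14 Kupffer cells had 6.67, 5.91 and 5.61 against 3.35, 3.45 and 2.60, higher in the knockout by 2.93 ± 0.61, beside the lower Kupffer and macrophage markers given for Csta3. E14 microglia had 3.57, 4.11 and 5.79 against 2.45, 2.31 and 2.67, higher by 2.01 ± 0.61, but no longer called without wild-type replicates 1 or 2 or knockout replicate 3 (1.36 to 2.00). The genotypes did not overlap in these 3 populations.

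Slpi was widely present, with every sample over the floor in 21 of 27 groups. It protects tissue from neutrophil elastase and cathepsin G. Liver CD11bhigh cells had 10.09 ± 0.15 in the knockout and 8.74 ± 0.30 in wild type at E14, and 9.62 ± 0.07 and 8.54 ± 0.36 in adults. Kidney CD11bhigh cells had 9.54 ± 0.81 and 6.69 ± 0.60 at E14 and 7.33 ± 0.72 and 7.40 ± 1.73 in adults. A1 cells had 5.44 ± 0.34 and 8.18 ± 0.50, A2 cells 7.21 ± 0.41 and 4.73 ± 0.35, Langerhans cells 5.12 ± 0.30 and 6.66 ± 0.32, and E14 microglia 8.27 ± 0.39 and 4.37 ± 0.92. E14 Kupffer cells had 6.29 ± 0.39 and 5.39 ± 0.43, E14 kidney F4/80high cells 5.0 ± 1.09 and 4.14 ± 0.49, and the other 7 groups 2.54 to 3.80.

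The progenitor populations A1 and A2 had Slpi differences of opposite sign. A1 cells had 5.08, 5.76 and 5.46 in the knockout and 8.68, 8.19 and 7.68 in wild type, a difference of -2.75 ± 0.53. A2 cells had 7.66, 7.14 and 6.84 against 4.34, 4.81 and 5.04, a difference of 2.48 ± 0.53, beside 8 of 8 macrophage markers lower in the knockout (median difference -1.94) and 2 of 5 progenitor markers higher, whose part was not tested. E14 microglia had 8.05, 8.71 and 8.03 against 3.48, 4.32 and 5.32, higher by 3.89 ± 0.53, and E14 kidney CD11bhigh cells 10.07, 9.95 and 8.61 against 6.56, 7.34 and 6.16, higher by 2.85 ± 0.53. The genotypes were apart in all 4, and these calls held with each sample left out. In Langerhans cells Slpi was lower by 1.54 on the log2 scale (a difference of -1.54 ± 0.53), no longer called without wild-type replicate 2 or knockout replicates 2 or 3 (-1.36 to -1.48).

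**Figure D3:**
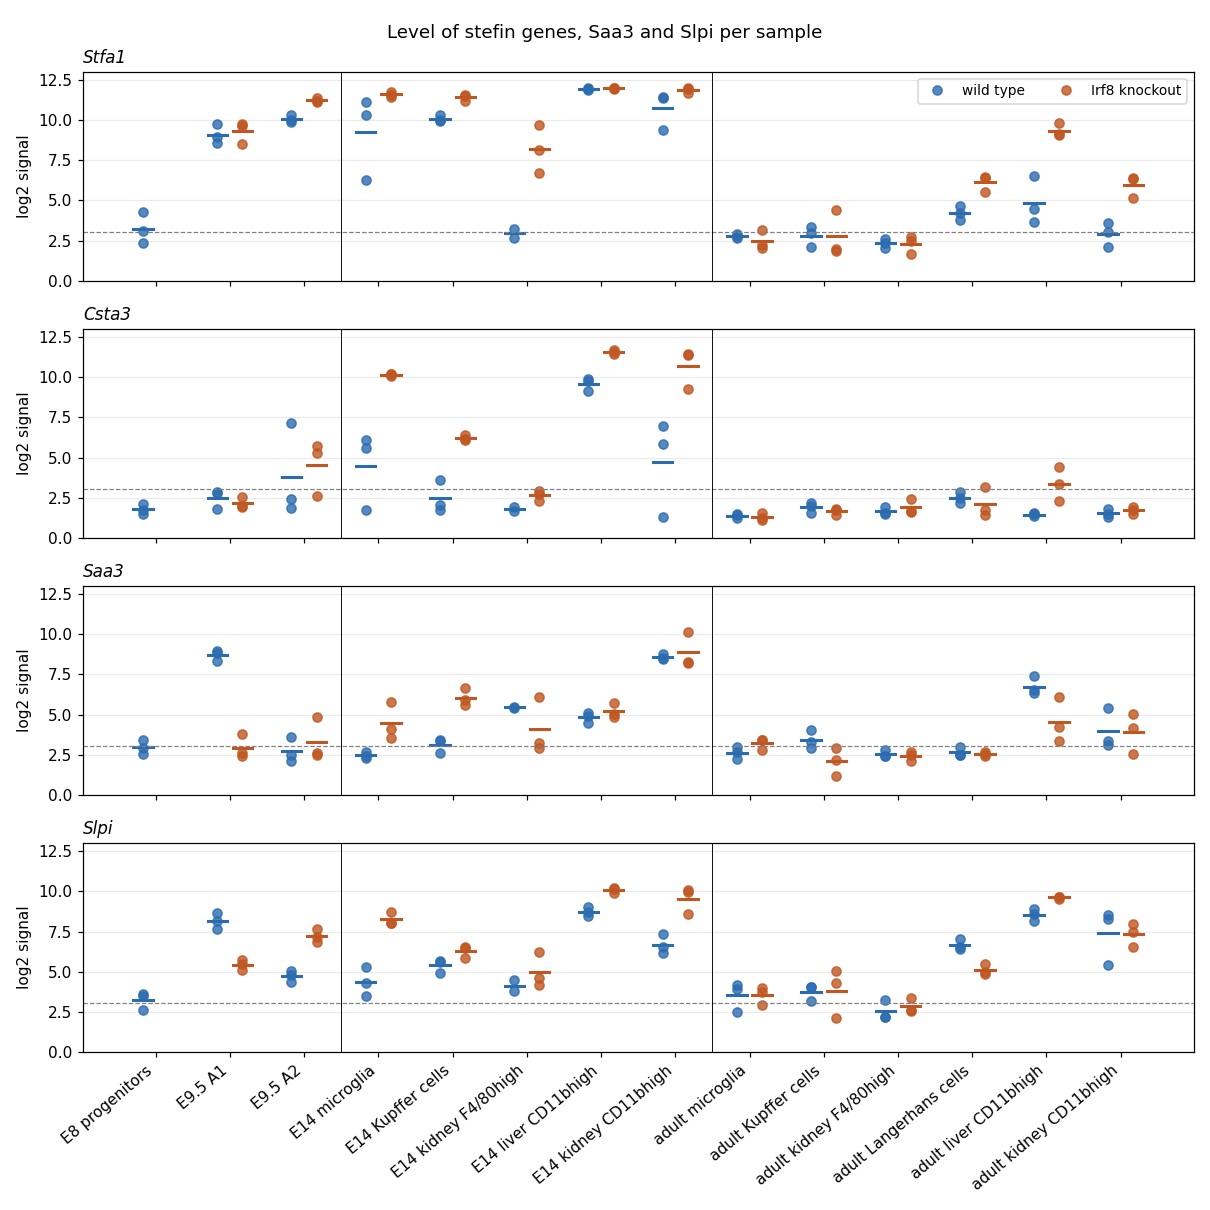
Log2 signal (vertical axis) of Stfa1, Csta3, Saa3 and Slpi in every sample, by population (horizontal axis), wild type in blue and Irf8 knockout in orange. Points are samples, bars are group means, and the dashed line is the floor of 3.041. Stfa1 and Csta3 are highest in E14 liver CD11bhigh cells, and Saa3 and Slpi are lower in knockout than in wild-type E9.5 A1 cells.

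Wild-type cells were compared without any knockout sample, over 11 contrasts of stage, gate and progenitor step. These p-values come from the same limma fit and are adjusted over all genes tested in each contrast. The genes were listed with these levels known and the same wild-type samples enter the knockout differences, so they are no independent support. Of 88 differences 51 passed, 34 of them higher and 17 lower in the group named first. In 18 of these 51, and in 3 of the 32 between genotypes, the lower group had no sample over the floor. The size of such a difference includes signal not told from background. Against the floor itself, the higher group's mean stood 6.55 log2 above it for Csta3 in the E14 against adult liver CD11bhigh comparison, 6.15 for Retnlg between the adult liver gates, 6.19 for Stfa1 between E14 and adult microglia and 4.88 for Retnla between the genotypes of Langerhans cells.

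From E14 to the adult, the stefins fell and Retnla and Chil3 rose in CD11bhigh cells. In the liver 7 of 8 genes passed, beside 34.3% of all genes: Retnla rose by 4.46 ± 0.79 log2 (SE, adjusted p = 3.99e-06), Retnlg by 4.06 ± 0.69 (1.57e-06), Chil3 by 2.73 ± 0.69 (0.00105) and Saa3 by 1.91 ± 0.61 (0.0106). Csta3 fell by 8.14 ± 0.84 (adjusted p = 1.53e-12), Stfa1 fell by 7.07 ± 0.65 (2.34e-14) and Chil1 fell by 4.89 ± 0.46 (4.74e-14). All samples were apart by stage for these 7 genes, and Slpi differed by -0.20 ± 0.53. Saa3 no longer passed without adult replicate 3 (1.59, adjusted p = 0.0705). Beside these changes, 13 of 24 neutrophil markers were lower and 1 higher in the adult (median difference -3.36), 4 of 7 eosinophil markers lower and 2 higher, 4 of 5 progenitor markers lower, and 6 of 8 macrophage and 6 of 11 monocyte markers higher. Their part was not tested.

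In kidney CD11bhigh cells 5 of 8 passed, beside 35.0% of all genes. Chil3 rose by 6.59 ± 0.69 (adjusted p = 6.51e-12), Stfa1 fell by 7.83 ± 0.65 (1.63e-15) and Saa3 fell by 4.62 ± 0.61 (6.41e-09), with no overlap between stages. Csta3 fell by 3.17 ± 0.84 (adjusted p = 0.00174), but its stages overlapped. It fell by 2.05 without E14 replicate 1 (adjusted p = 0.072) and by 4.88 without E14 replicate 3. Retnla rose by 2.42 ± 0.79 (adjusted p = 0.012), which rested on adult replicate 3: without it the difference was 0.83 (adjusted p = 0.446). It did not pass with array weights or with the compared groups alone. In the same comparison 7 of 7 kidney tubule markers were higher in the adult (median difference 5.17), 12 of 24 neutrophil markers lower and 3 higher, 4 of 7 eosinophil markers lower and 1 higher, and 6 of 8 macrophage markers lower, and their part was not tested.

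Resident cells shared the fall of Stfa1 in 2 of 3 populations. It fell by 6.46 ± 0.65 in microglia (adjusted p = 1.69e-12), where 3 of 8 genes passed beside 18.3% of all genes, and by 7.27 ± 0.65 in Kupffer cells (1.11e-14), where 2 of 8 passed beside 30.0%. In kidney F4/80high cells, where 2 of 8 passed beside 28.2%, Stfa1 was near the floor at both stages and differed by -0.61 ± 0.72 (adjusted p = 0.600). Saa3 fell there by 2.90 ± 0.68 (adjusted p = 0.000637). Slpi fell by 1.60 ± 0.59 in kidney F4/80high cells (0.0355) and by 1.63 ± 0.53 in Kupffer cells (0.0139). Neither Slpi fall held with each sample left out. Neutrophil markers were lower in 12 of 24 cases in adult Kupffer cells, and 7 of 7 kidney tubule markers were higher in adult kidney F4/80high cells. Their part was not tested.

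Microglia also passed for Csta3 and Chil3, both on few samples. Csta3 fell by 3.09 ± 0.84 (adjusted p = 0.00432), and no longer passed without E14 replicate 2 or 3. Chil3 rose by 2.78 ± 0.69 (adjusted p = 0.00172), which rested on adult replicate 2: without it the difference was 0.98 (adjusted p = 0.307).

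CD11bhigh gates carried more of these transcripts than the resident gate of the same organ. In the adult liver 6 of 8 genes were higher in CD11bhigh than in Kupffer cells, beside 28.0% of all genes called: Retnlg by 7.48 ± 0.69 (adjusted p = 3.22e-14), Chil3 by 6.81 ± 0.69 (1.32e-12), Slpi by 4.78 ± 0.53 (2.97e-11), Retnla by 4.30 ± 0.79 (1.07e-05), Saa3 by 3.32 ± 0.61 (1.15e-05) and Stfa1 by 2.05 ± 0.65 (0.0113). The samples of these 6 genes were apart. Stfa1 no longer passed without CD11bhigh replicate 3 (1.24, adjusted p = 0.208) or Kupffer replicate 1 (1.71, 0.0746).

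In the E14 liver 7 of 8 were higher in CD11bhigh cells, beside 24.6% of all genes, and Retnla was over the floor in no sample of either gate. Csta3 was higher by 7.13 ± 0.84 (adjusted p = 1.94e-10), Chil1 by 4.86 ± 0.46 (1.09e-13), Chil3 by 4.62 ± 0.69 (1.53e-07), Slpi by 3.35 ± 0.53 (6.33e-07) and Retnlg by 2.63 ± 0.69 (0.00212). Stfa1 (1.86 ± 0.65, adjusted p = 0.0265) and Saa3 (1.70 ± 0.61, 0.0319) passed too, but no longer without any of 5 and of 4 samples. Neutrophil markers were higher in the CD11bhigh gate in 21 of 24 cases at E14 and 14 of 24 in adults, and their part in these differences was not tested.

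Kidney gates differed for 4 of 8 genes at each stage. In adults (23.6% of all genes called) Chil3 was higher in CD11bhigh cells by 6.03 ± 0.69 (adjusted p = 1.74e-10), Retnlg by 5.52 ± 0.69 (1.93e-09) and Slpi by 4.86 ± 0.53 (4.06e-11). Retnla was higher by 2.72 ± 0.79 (0.00697), resting on CD11bhigh replicate 3 (1.14 without it, adjusted p = 0.309). At E14 (5.81% of all genes) Stfa1 was higher by 7.78 ± 0.72 (1.23e-12), Retnlg by 4.54 ± 0.77 (1.73e-05), Saa3 by 3.12 ± 0.68 (0.00124) and Slpi by 2.55 ± 0.59 (0.00279), the last no longer without F4/80high replicate 2 (2.20, adjusted p = 0.118). Beside them, 11 of 24 neutrophil markers were higher in the adult CD11bhigh gate and 13 of 24 at E14, and their part was not tested.

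In the yolk sac most of these genes rose from E8 progenitors to A1 cells and were lower again in A2 cells. A1 cells exceeded E8 progenitors in 6 of 8 genes, beside 22.7% of all genes: Stfa1 by 5.83 ± 0.65 (adjusted p = 2.22e-11), Saa3 by 5.75 ± 0.61 (5.10e-12), Slpi by 4.96 ± 0.53 (6.96e-12), Retnla by 3.64 ± 0.79 (0.000192), Retnlg by 3.14 ± 0.69 (0.000222) and Chil3 by 3.05 ± 0.69 (0.000373). From A1 to A2, 5 of 8 fell, beside 11.4% of all genes. Saa3 fell by 5.98 ± 0.61 (adjusted p = 6.77e-12), Retnla fell by 3.88 ± 0.79 (0.000167), Chil3 fell by 3.56 ± 0.69 (7.58e-05), Slpi fell by 3.45 ± 0.53 (8.41e-07) and Retnlg fell by 3.37 ± 0.69 (0.000171). Stfa1 did not, with a difference of 0.98 ± 0.65 (adjusted p = 0.436). The samples of all 6 and of all 5 genes were apart, and these calls held with each sample left out. From E8 to A1, 8 of 8 macrophage markers (median difference 3.02), 9 of 11 monocyte markers (3.29) and 11 of 24 neutrophil markers rose. From A1 to A2, 8 of 8 macrophage markers rose (2.22), 5 of 11 monocyte markers fell and 2 rose, and 5 of 24 neutrophil markers fell. The part of these lists was not tested.

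**Figure D4:**
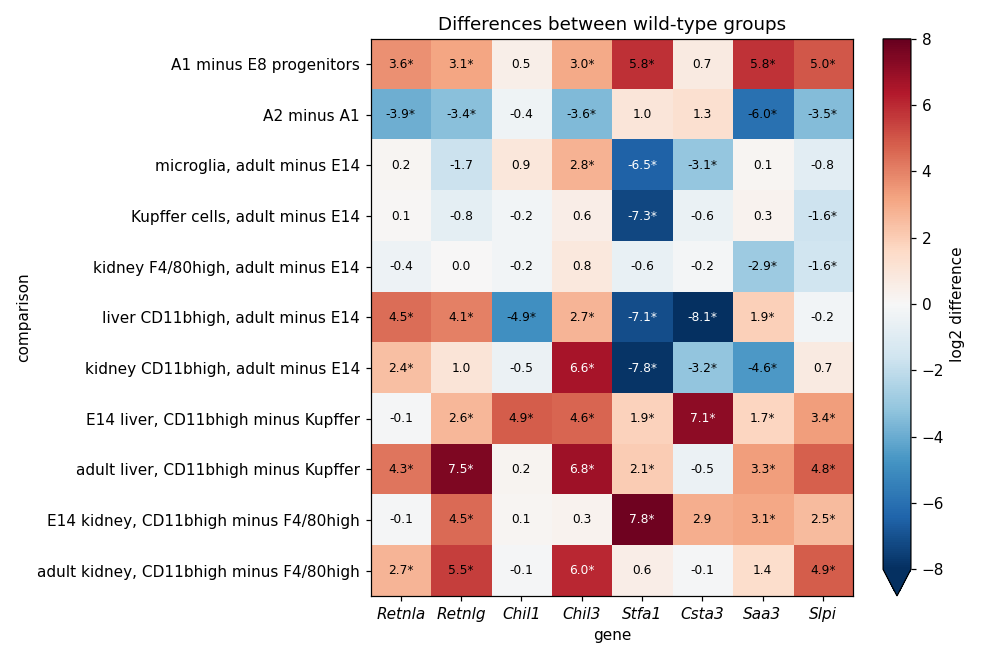
Log2 difference of the 8 genes (columns) in 11 contrasts between wild-type groups (rows), red where the group named first is higher and blue where it is lower. An asterisk marks a difference that passed over all genes tested. Stfa1 is blue from E14 to the adult in microglia, Kupffer cells and both CD11bhigh populations, and the gate rows hold asterisks on positive values only.

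Relatives of the stefins differed in the knockout in some of the same populations. Of 13 listed cystatins 10 were tested. Cstdc5 and Cstdc6, tested genes named below for their likeness to Csta3, are not counted among these 10. In E14 microglia 6 were higher and 0 lower, and in E14 kidney CD11bhigh cells 4 and 1. Adult liver CD11bhigh cells had 4 and 2, and E14 liver CD11bhigh cells 2 and 2. Stfa2 was higher by 5.11 ± 0.45 in E14 kidney CD11bhigh cells, 3.43 ± 0.45 in E14 microglia and 2.62 ± 0.45 in E14 liver CD11bhigh cells. Stfa3 was higher by 4.29 ± 0.88 and Cstdc4 by 3.81 ± 0.85 in E14 microglia, and Cstdc4 by 4.85 ± 0.85 in adult liver CD11bhigh cells. Cst7, a cystatin of lysosomes known from activated microglia, was higher by 4.04 ± 0.40 in adult microglia, a population where neither Stfa1 nor Csta3 was called, and fell by 1.93 ± 0.40 in E14 liver CD11bhigh cells. Cstb was lower in 5 populations and higher in 1, and Cst3 was lower in 3 and higher in 0.

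Other relatives had fewer calls. The resistin family had Retn tested, higher by 1.10 ± 0.27 in E14 liver CD11bhigh cells alone, and Retnlb was over the floor in 0 of 80 samples. Among chitinases, 5 of 8 were tested and Chit1, a true chitinase of macrophages, was higher in 3 populations, by 1.18 ± 0.31 in adult liver CD11bhigh cells. The differences of the other 4, Ctbs, Chil5, Chil6 and Chid1, were not called in any of 13 populations. Chil4, close in sequence to Chil3, was over the floor in 1 of 80 samples. Saa4, the 1 tested relative of Saa3, had 0 calls in the 13 populations.

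Relatives of Slpi, the whey acidic protein family, moved in both directions. Of 10 genes 8 were tested. Wfdc21 was higher in 4 populations, by 5.21 ± 0.58 in adult liver CD11bhigh cells, 5.13 ± 0.58 in adult kidney CD11bhigh cells, 5.0 ± 0.58 in E14 kidney CD11bhigh cells and 3.58 ± 0.58 in E14 microglia, and lower in Langerhans cells, where it fell by 2.21 ± 0.58. Wfdc17 was lower in 7 populations, E14 liver CD11bhigh cells among them (-3.93 ± 0.40), and higher in Langerhans cells by 2.88 ± 0.40. Wfdc15b (-4.55 ± 0.49) and Wfdc2 (-2.74 ± 0.53) were lower in adult kidney CD11bhigh cells, where 4 of 7 kidney tubule markers were lower too.

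Of 8 proteases of the kinds that the stefins and Slpi inhibit, all were tested, and calls went in both directions. The serine proteases Elane, Ctsg and Prtn3 were higher in 2, 4 and 4 populations and lower in 0. In adult liver CD11bhigh cells they were higher by 7.36 ± 0.76, 6.41 ± 0.72 and 5.13 ± 0.56. Elane, Ctsg and Prtn3 are also on the neutrophil list, and the part of neutrophil RNA was not tested. The cysteine cathepsins went the other way: Ctsh was lower in 11 populations, Ctsb in 8, Ctss in 7 and Ctsl in 4, with 1 call higher, of Ctsl. Ctss had the largest of these, a fall by 5.05 ± 0.24 in A2 cells. Mast cell chymase Cma1, also a serine protease, was lower in 2 and higher in 0.

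Receptors and regulators were mixed. Fpr2, a receptor that binds serum amyloid A, was higher in 4 populations, by 3.78 ± 0.63 in E14 microglia. On the same list, Tlr2 was lower in 6 populations and higher in 2, and Scarb1 was lower in 3 and higher in 1. Tlr4 was lower in 3 and higher in 1, and Cd36 lower in 7 and higher in 1, with falls by 1.93 ± 0.25 and 3.42 ± 0.38 in A2 cells, and Cd44 was higher in 3, by 2.35 ± 0.26 in adult microglia, and lower in 2. Of 9 granulocyte regulators, Cebpe, which drives granulocyte maturation, was higher in 4 populations, by 3.38 ± 0.41 in adult liver CD11bhigh cells, where Gfi1 was higher by 1.80 ± 0.24. Gfi1 was lower in 1 other population. Csf3r was lower in 3, Kupffer cells of adults among them (-1.39 ± 0.25). Cebpe and Csf3r are also on the neutrophil list, and the part of neutrophil RNA was not tested.

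Markers of alternative activation were called in both directions. Of 13, all tested, 4 were higher and 2 lower in Langerhans cells, 1 and 7 in adult liver CD11bhigh cells, 4 and 1 in adult kidney CD11bhigh cells and 0 and 4 in A1 cells. The mannose receptor Mrc1 was higher by 5.49 ± 0.38 in adult microglia, where Retnla was below the floor in all samples of both genotypes. Ccl22 (-3.98 ± 0.77 in adult Kupffer cells), Ccl24 (-3.84 ± 0.47 in E14 kidney CD11bhigh cells) and Il13ra1 (-3.53 ± 0.26 in A2 cells) had the largest other differences of the list. Eosinophil markers were higher in 3 of 7 cases in E14 microglia and in 0 of 7 in each of the 3 adult populations with a Retnla call.

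Across the 27 group means, Chil1 had its highest likeness to Itgb2l and Csta3 to Cstdc5. These correlations (Pearson r over 27 group means that share samples, processing and marker content) are a description without a test. Chil1 was most like Itgb2l (0.977), Ceacam10 (0.969) and Ltf (0.959), and Csta3 most like Cstdc5 (0.974), Cstdc6 (0.962) and Olfm4 (0.943). Stfa1 was most like Prtn3 (0.895), Mpo (0.891) and Cstdc4 (0.857), Retnlg like Pglyrp1 (0.922), Gda (0.907) and Pi16 (0.902), and Slpi like Mcemp1 (0.918), Olr1 (0.887) and Fcor (0.873). Chil3 was most like Ly6a2 (0.898), Arhgef18 (0.880) and Cd177 (0.873), Retnla like Lyz1 (0.882), Igh-VS107 (0.865) and Ccl17 (0.831), and Saa3 like Mkx (0.836), Acod1 (0.818) and Tmsb15a (0.814). Itgb2l, Ltf, Olfm4, Pglyrp1, Cd177, Prtn3 and Mpo are on the neutrophil list used here. Among the 8 themselves, r was 0.826 between Retnlg and Slpi, 0.758 between Stfa1 and Csta3, 0.382 between the neighbours Retnla and Retnlg, and -0.269 between Retnla and Csta3.

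**Figure D5:**
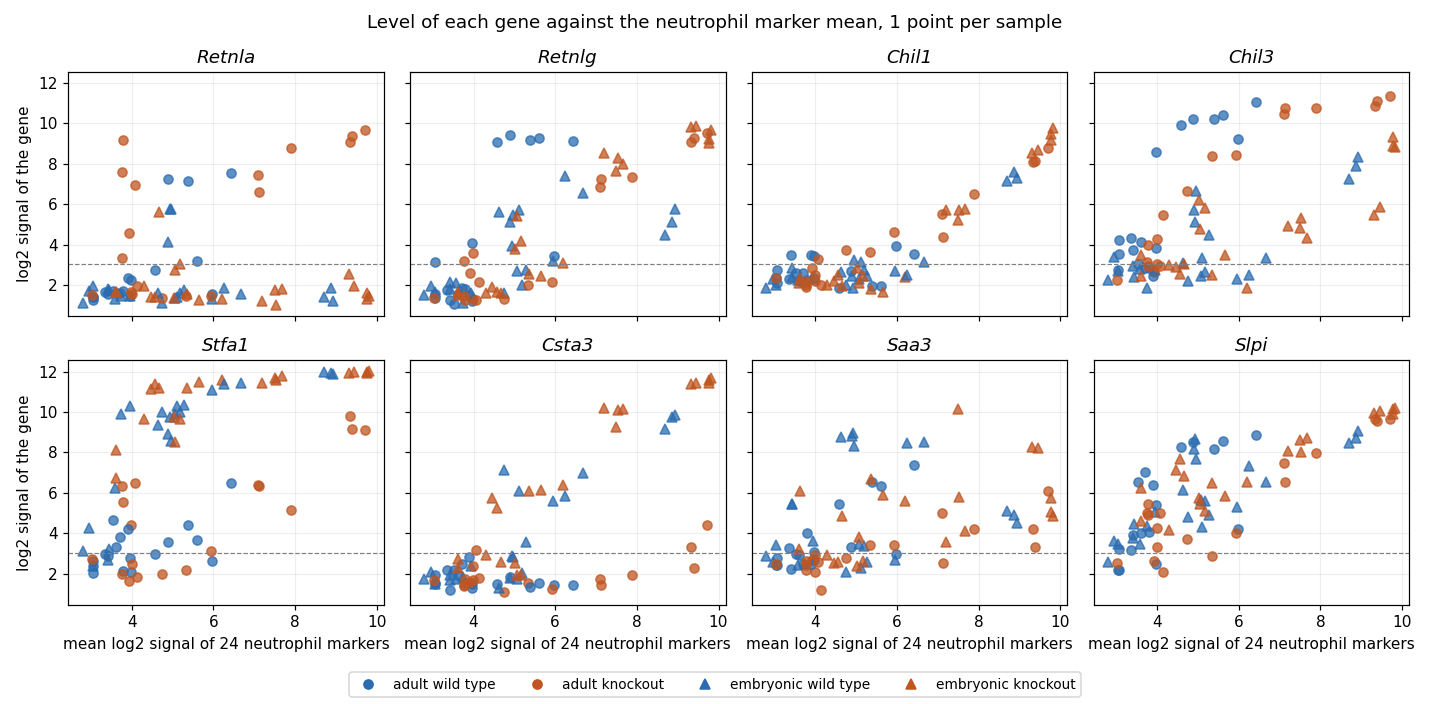
Log2 signal of each of the 8 genes (vertical axis) against the mean log2 signal of the 24 neutrophil markers (horizontal axis), 1 point for each of the 80 samples, circles for adult and triangles for embryonic cells, blue for wild type and orange for the Irf8 knockout. The dashed line is the floor of 3.041. Chil1 exceeds 5 only in samples with a marker mean over 7, whereas Retnla reaches 9.21 in a knockout Langerhans sample with a marker mean of 3.78 and Stfa1 exceeds 8 log2 in embryonic samples with means below 4.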

How the data were processed

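Per the submitters' processing notes, the deposited values are log2 signals that the authors made from Affymetrix arrays by robust multi-array averaging (RMA) in Affymetrix Expression Console. Software versions were not given in the sources used here, nor was a build. Per the labels' protocols, cells were sorted by flow cytometry and their RNA was amplified before hybridisation. The value table held 41345 probes, 23521 of them with 1 gene symbol, 1814 with several (not used) and 16010 unnamed here. The brightest probe stood for a gene where there were several (1082 of 22180 genes). A gene was tested when it exceeded the table's median, 3.041 log2, in at least 2 arrays. Of 81 arrays, 2 were runs of 1 knockout A2 sample and were averaged, leaving 80 samples. Their number limits the precision, and no detection call or scan date was used here.

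In R 4.3.3, limma 3.58.1 fitted 1 group-mean model over all samples, with a mean-dependent prior, 24 contrasts and Benjamini-Hochberg adjustment over 17099 genes in each. Levels were not compared between probes. Tables and figures were made in Python 3.11.15 with pandas 2.3.3 and matplotlib 3.10.9, and promoters were aligned with Biopython 1.88. The fit was tested on simulated data.

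The genes, the lists of relatives and the marker lists were chosen with earlier results of these data known. The text names the 8 genes in all groups, with values per sample in the 4 populations of the largest knockout difference, the 3 genes most like each, and up to 4 genes per list with the largest difference. Counts by gene over a whole list, and other per-sample values, were added after the values were seen. Same-numbered samples did not deviate together by the rule used (every correlation over 0.1), so the fit has no replicate term. The adult kidney gates fell just short of that rule, with correlations of 0.386, 0.099 and 0.096. Alternatives were array weights, the compared groups alone, a replicate block, quantile or median scaling, other floors, every probe on its own, either run of the repeated sample, and each sample left out.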

Additional observations from a re-analysis of the deposited data

Results flagged for a closer look

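Some genes had called differences of opposite direction in different populations, with every sample of each comparison apart by group. The gaps below are on the log2 scale, and whether the differences themselves differ was not tested. Some of the calls did not hold with each sample left out. Between genotypes these were Retnla in adult liver CD11bhigh cells and A1 cells, and Slpi in Langerhans cells. Saa3 in E14 microglia and in adult liver CD11bhigh cells did not hold either, nor did its wild-type rise in liver CD11bhigh cells.

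Retnla was higher in the knockout in Langerhans cells and adult liver CD11bhigh cells and lower in A1 cells, with gaps between the differences of 8.86 and 6.24. Saa3 was higher in the knockout in E14 microglia and E14 Kupffer cells and lower in adult liver CD11bhigh cells and in A1 cells. Against adult liver CD11bhigh cells the gaps were 4.19 for E14 microglia and 5.11 for E14 Kupffer cells, and against A1 cells 7.78 and 8.69. Slpi was higher in the knockout in E14 microglia, E14 kidney CD11bhigh cells and A2 cells and lower in Langerhans cells and A1 cells. Against Langerhans cells the gaps were 5.43, 4.39 and 4.02, and against A1 cells 6.64, 5.60 and 5.23, in that order. In wild type, Saa3 rose from E14 to the adult in liver CD11bhigh cells and fell in kidney F4/80high and kidney CD11bhigh cells, with gaps of 4.81 and 6.53.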

How the results depend on the processing

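No difference of the 8 genes that was called changed sign under any alternative run. Of 32 calls between genotypes 20 held under all alternatives, and of 51 between wild-type groups 39. With the replicate number as a block the counts were 32 and 50, and the 1 call lost was Retnla between the adult kidney gates; no other call changed with that block. With the compared groups alone in the fit they were 37 and 50: 8 calls between genotypes were gained and 3 lost. Between wild-type groups 3 were gained and 4 lost. The counts were 34 and 52 with array weights and 31 and 51 with quantile normalization. Leaving out 1 sample at a time gave 29 to 34 and 48 to 55. Median centring moved the median of all genes by up to 0.149 log2, between adult liver CD11bhigh and Kupffer cells, and changed no call of the 8 genes. The causes of these changes were not tested. No detection call was used, so a signal under the floor has no order.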
